A study of Mus musculus with 8 samples.

Results

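Among 8 heart samples of Pcyt2+/- mice, 3 had a low level of Myl7, the atrial myosin regulatory light chain, and 5 did not. These 3 atrial-poor arrays were compared with the 5 atrial-rich arrays. The sides were chosen by the measured Myl7 value: an array with Myl7 below -0.4 was placed on the atrial-poor side. Myl7 was read by 1 probe set, and every probe set had been centred before deposit, so a log2 value of 0 stands for the middle of the 8 arrays and absolute levels are unknown. The atrial-poor side held males 1 and 3 and female 1. The atrial-rich side held males 2 and 4 and females 2, 3 and 4.

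All 8 mice carried 1 disrupted copy of Pcyt2, the gene of the rate-limiting enzyme of phosphatidylethanolamine synthesis from ethanolamine, and all were 8 months old. The males (4) and females (4) are labelled as biological replicates, the tissue is given as myocardium, and the hearts were frozen 3 to 4 hours after lights on. No label tells which chambers went into a sample. Wild-type hearts were not analysed here, so every value below describes hearts of this 1 genotype. The sources used here do not give the strain or the way the allele was made.

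Atrial and ventricular heart muscle build their thick filaments with different light chains. Myl7 and Myl4 serve atrial myosin, and Myl2 and Myl3 serve ventricular myosin. Atrial muscle cells also store atrial natriuretic peptide in granules, make the growth factor Bmp10, and use sarcolipin (Sln) to restrain the calcium pump of the sarcoplasmic reticulum. The transcription factor Tbx5 and the nuclear receptors Nr2f1 and Nr2f2 are known for their part in atrial identity. In a bulk sample, fewer cells of a type and less RNA per cell cannot be told apart.

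The promoters of 5 atrial genes are shown first, because these genes lead the differences between the sides or mark atrial muscle. Each is the 250 bases before the gene's start in RefSeq (GRCm38.p6), printed in the gene's direction: Myl7 at chr11:5898783-5899032 (minus strand), Myl4 at chr11:104550413-104550662 (plus strand), Nppa at chr4:148000472-148000721 (plus strand), Bmp10 at chr6:87428744-87428993 (plus strand) and Mybphl at chr3:108364661-108364910 (plus strand). Capitals mark matches on either strand to AGATAA (read by Gata4 and its relatives), AGGTGT (T-box factors), CAAGTG (NKX factors), TATAAA (the core promoter box of that name), or the MEF2 and CArG box motifs by name. None of these motifs overlap in the windows shown.
Myl7: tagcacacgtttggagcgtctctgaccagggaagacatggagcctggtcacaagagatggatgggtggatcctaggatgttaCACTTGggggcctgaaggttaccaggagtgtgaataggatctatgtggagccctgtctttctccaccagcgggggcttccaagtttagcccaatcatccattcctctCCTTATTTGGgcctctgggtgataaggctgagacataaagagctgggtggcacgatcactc
Myl4: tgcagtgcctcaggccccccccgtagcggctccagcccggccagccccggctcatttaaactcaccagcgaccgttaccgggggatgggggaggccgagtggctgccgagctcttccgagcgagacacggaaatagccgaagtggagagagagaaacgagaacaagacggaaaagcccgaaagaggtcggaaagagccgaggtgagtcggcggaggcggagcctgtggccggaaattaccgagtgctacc
Nppa: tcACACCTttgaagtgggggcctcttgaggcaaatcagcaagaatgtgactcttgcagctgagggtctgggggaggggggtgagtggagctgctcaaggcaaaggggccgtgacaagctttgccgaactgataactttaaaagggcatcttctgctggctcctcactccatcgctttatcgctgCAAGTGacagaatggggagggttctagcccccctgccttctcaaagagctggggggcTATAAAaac
Bmp10: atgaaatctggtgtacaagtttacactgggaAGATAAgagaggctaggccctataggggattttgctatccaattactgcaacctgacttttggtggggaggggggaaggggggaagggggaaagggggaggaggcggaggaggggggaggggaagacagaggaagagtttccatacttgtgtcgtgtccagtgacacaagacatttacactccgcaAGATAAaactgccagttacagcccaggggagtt
Mybphl: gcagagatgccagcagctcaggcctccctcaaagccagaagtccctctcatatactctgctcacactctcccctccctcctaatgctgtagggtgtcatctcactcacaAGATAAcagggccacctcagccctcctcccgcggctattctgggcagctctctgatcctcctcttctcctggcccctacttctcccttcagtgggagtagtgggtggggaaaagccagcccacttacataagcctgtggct
No motif was shared by all of the 5 windows, and the Myl4 window held none of them. Myl7 held an NKX motif on the opposite strand, 168 to 163 bases before the start, and a CArG box, 61 to 52 bases before it. Nppa held a T-box motif on the opposite strand, an NKX motif and TATAAA. Bmp10 held AGATAA in 2 places and Mybphl in 1. Of 32851 RefSeq windows of this length, 9.99% held AGATAA, 11.8% AGGTGT, 11.6% CAAGTG, 12.4% TATAAA, 0.508% the MEF2 motif and 1.47% the CArG box. Over the 16 of 20 atrial genes with a window, counting Myl7, 3 held AGATAA, 3 CAAGTG, 2 AGGTGT, 2 TATAAA, 1 the CArG box and 0 the MEF2 motif. These counts are of genes with a match in any of their windows, while the percentages are of windows. A match describes letters in this window and is no evidence of binding.

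Myl7 itself was -1.04 in female 1, -0.95 in male 3 and -0.42 in male 1. On the other side it was -0.12 in female 3, 0.12 in male 4, 0.16 in male 2, 0.40 in female 4 and 0.67 in female 2. Male 1 lay just inside the threshold, female 3 was the nearest array outside it with a wider gap, and female 1 and male 3 stood well below the rest. These values made the sides and are given as a description. Since every gene below was read on the same arrays as Myl7, the differences between the sides are also given as descriptions, with the fitted difference (atrial-poor minus atrial-rich, sex as covariate) and its standard error.

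Bmp10, a secreted growth factor of the BMP family made by atrial muscle cells, differed most. It was -3.46 in female 1, -3.35 in male 1 and -2.25 in male 3. In the atrial-rich arrays it was -0.39 in female 3, 0.39 in male 2, 0.50 in female 4, 0.53 in male 4 and 0.91 in female 2. The sides were far apart, with a mean of -3.02 ± 0.67 (SD, n = 3) against 0.39 ± 0.48 (SD, n = 5) and a fitted difference of -3.49 ± 0.34 (SE) on the log2 scale, which is 11.3-fold lower. Bmp10 was thus as low in male 1 as in female 1, although Myl7 in male 1 was close to the threshold.

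Sln was -1.02 in female 1, -0.95 in male 3 and -0.15 in male 1. It was -0.07 in female 3, 0.07 in male 4, 0.39 in male 2, 0.50 in female 4 and 0.74 in female 2. The sides did not overlap, but male 1 and female 3 were neighbours with almost the same value. The fitted difference was -1.05 ± 0.25 (SE), or 2.07-fold lower. The 3 arrays with the lowest mean of Sln and Bmp10 were the same 3 arrays that the Myl7 rule chose.

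**Figure D1:**
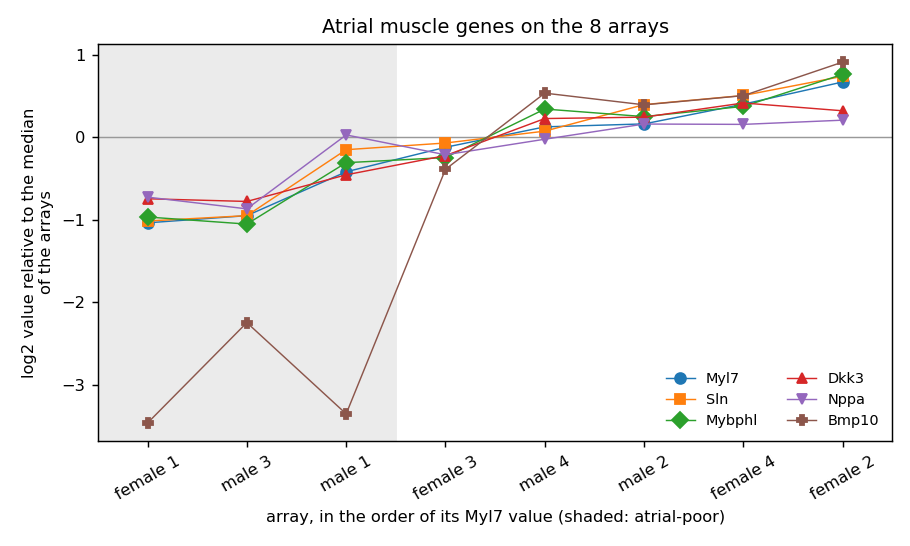
Log2 values of atrial genes (vertical axis, centred per probe set) on the 8 arrays, ordered by Myl7 along the horizontal axis. Each line joins the values of 1 gene, and Bmp10 reaches -3.46 in female 1 and -3.35 in male 1 while the other genes stay closer to 0.

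Of the atrial list, 19 genes other than Myl7 were measured, and all 19 had a negative fitted difference, with a median of -0.40. Over all 21064 autosomal genes compared, 49.1% had a negative difference and the median was 0.0011, and the 5th and 95th percentiles were -0.12 and 0.11. On the atrial list, 9 of 19 genes had every atrial-poor value below every atrial-rich value, beside 1.93% of all genes compared (407 of 21064). The list was drawn from general knowledge with earlier results of these arrays known. Its genes were chosen as markers of the same tissue as Myl7, so their direction is not independent of the rule. Kcnk3 was on the list but was not measured as a single-symbol gene.

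Contractile and calcium-channel members differed to unequal degrees. Mybphl, a myosin-binding protein of the atrial sarcomere, was -1.05 in male 3, -0.97 in female 1 and -0.31 in male 1. In the atrial-rich arrays Mybphl was -0.25 in female 3, 0.25 in male 2, 0.34 in male 4, 0.37 in female 4 and 0.76 in female 2. Male 1 and female 3 were again neighbours, and the fitted difference was -1.10 ± 0.24 (SE). Myl4, the atrial essential light chain and partner of Myl7, showed a smaller difference of -0.40 ± 0.09 (SE), with atrial-poor values of -0.36, -0.34 and -0.11 against a range of -0.07 to 0.29. Cacna2d2, an auxiliary subunit of voltage-gated calcium channels, was -0.53 in female 1, -0.48 in male 1 and -0.22 in male 3 against -0.08 to 0.18, a difference of -0.52 ± 0.07 (SE). Cacna1d, a pore subunit of L-type channels of atrial and pacemaker cells, overlapped between the sides (difference -0.08 ± 0.07, SE).

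Among the potassium channels and their receptor, Kcnj3 and Kcnj5 form the channel that acetylcholine opens through the M2 receptor Chrm2. Kcnj3 was -0.19, -0.15 and -0.10 on the atrial-poor side against 0.01 to 0.19 on the other, a difference of -0.21 ± 0.05 (SE). For Kcnj5 the values overlapped, with a difference of -0.17 ± 0.12 (SE), and for Chrm2 they overlapped through female 3 at -0.23, with a difference of -0.21 ± 0.09 (SE). Kcna5, which carries the ultrarapid repolarising current, had a difference of -0.01 ± 0.04 (SE). The size of the difference therefore varied over the list from -3.49 for Bmp10 to -0.0087 for Kcna5.

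The secreted members were led by Bmp10, Dkk3, Hamp and Nppa. Dkk3, a secreted glycoprotein of the Dickkopf family, was -0.78 in male 3, -0.75 in female 1 and -0.46 in male 1. It was -0.22 in female 3, 0.22 in male 4, 0.24 in male 2, 0.32 in female 2 and 0.41 in female 4. The sides were apart, with a difference of -0.88 ± 0.15 (SE), or 1.84-fold lower. Hamp, the iron-regulating peptide hepcidin, was -2.40 in male 1, -1.42 in female 1 and -0.45 in male 3. On the atrial-rich arrays Hamp was -0.81 in female 3, 0.45 in male 2, 0.49 in male 4, 0.95 in female 2 and 0.96 in female 4. These sides overlapped through male 3 and female 3, and the difference of -1.85 ± 0.53 (SE) became -1.38 without male 1 and -0.87 with male 1 moved to the atrial-rich side, an alternative chosen after the data were seen.

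Nppa, which encodes atrial natriuretic peptide, was -0.87 in male 3, -0.73 in female 1 and 0.03 in male 1. It was -0.21 in female 3, -0.03 in male 4, 0.15 in female 4, 0.16 in male 2 and 0.20 in female 2. Only 2 of the 3 atrial-poor arrays had low Nppa, and male 1 lay inside the atrial-rich range. The fitted difference was -0.61 ± 0.20 (SE). Pam, the amidating enzyme abundant in atrial granule membranes, followed the same order, with -0.32, -0.31 and -0.05 against -0.13 to 0.25 and a difference of -0.35 ± 0.10 (SE).

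Of the transcription factors, Tbx5 alone was apart between the sides. Tbx5 was -0.36, -0.34 and -0.24 on the atrial-poor arrays and -0.09 to 0.41 on the others, a difference of -0.46 ± 0.11 (SE) with no overlap. For Nr2f2 the difference was -0.19 ± 0.07 (SE), for Nr2f1 -0.13 ± 0.08 (SE) and for Hey1, a Notch target of atrial muscle, -0.04 ± 0.10 (SE), and all of these overlapped. Stard10, a lipid-transfer protein, was -0.38, -0.34 and -0.26 against -0.13 to 0.42, a difference of -0.53 ± 0.12 (SE).

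Male 1 did not rank alike in all atrial genes. It stood above both other atrial-poor arrays in 9 of 19 genes (Myl4, Sln, Nppa, Dkk3, Mybphl, Stard10, Nr2f2, Hey1 and Pam), between them in 4, and below both in 6 (Hamp, Kcnj3, Kcnj5, Kcna5, Cacna1d and Tbx5). The mean over the 19 genes was -0.46 in male 1 beside -0.44 in male 3 and -0.57 in female 1, and from -0.12 in female 3 to 0.36 in female 2 on the atrial-rich side. The low mean of male 1 rested on Bmp10 and Hamp: over the other 17 genes it was -0.17, beside -0.34 in male 3, -0.35 in female 1 and -0.07 in female 3. The median over all 19 genes was -0.15 in male 1, -0.24 in male 3 and -0.34 in female 1, so male 1 was the least low of the atrial-poor arrays on both measures. Adding the side to the model lowered the residual SD of 17 of 19 atrial genes, from a median of 0.254 to 0.167. Over all genes the median went from 0.0740 to 0.0730. As the side was cut from Myl7, a marker of the same tissue on the same arrays, this drop is only a description.

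Beyond the list, 15 genes, or 0.0712% of 21064, had a fitted difference of at least 1.5-fold toward lower values on the atrial-poor arrays, and 0 genes (0%) toward higher values. Of these 15, 6 were on the atrial list (Bmp10, Hamp, Mybphl, Sln, Dkk3 and Nppa) and 10 had sides that did not overlap. The others were Cxcl13, Sbk3, Scd1, Fgf12, Retnla, Mir690, Tmem163, Peg3 and Upk3b, of which Scd1, Fgf12, Retnla and Mir690 were named after their values were seen.

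Cxcl13, a chemokine that attracts B cells, was -1.05 in male 1, -0.996 in female 1 and -0.78 in male 3. It was -0.03 in male 4, 0.03 in male 2, 0.08 in female 2, 0.10 in female 3 and 0.61 in female 4. The gap between the sides was wide, and the difference was -1.06 ± 0.14 (SE), or 2.08-fold lower. Of 10 lymphocyte markers measured beside it, 8 were lower and 2 higher, with a median of -0.01 and list means of -0.07 to 0.05 on the atrial-poor arrays and -0.05 to 0.08 on the others, and their part in the result was not tested.

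Sbk3, a kinase of the SH3-binding domain family, was -0.72, -0.63 and -0.37 against -0.16 to 0.72, a difference of -0.89 ± 0.20 (SE). Tmem163, a zinc-transporting vesicle membrane protein, had a difference of -0.67 ± 0.15 (SE), and Peg3, an imprinted zinc finger gene, one of -0.61 ± 0.12 (SE), both without overlap. Mir690, read through a probe set of that symbol, had a difference of -0.71 ± 0.12 (SE), also without overlap. Fgf12, an intracellular factor that modulates sodium channels, had a difference of -0.75 ± 0.23 (SE) with overlap.

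A pair of the 15 rested on single arrays. Scd1, the stearoyl-CoA desaturase, was 1.26, 1.38 and 2.11 in the atrial-rich females but -0.16 and -0.04 in the atrial-rich males, against -0.57, -0.04 and 0.04 on the atrial-poor side. Its difference of -0.79 ± 0.33 (SE) became -0.17 without female 1, the sole atrial-poor female. Retnla, a resistin-like secreted protein, was -1.47 in male 1, -0.51 in female 1 and 0.07 in male 3 against -0.20 to 0.38, and its difference of -0.71 ± 0.31 (SE) became -0.35 without male 1 and -1.07 without male 3.

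**Figure D2:**
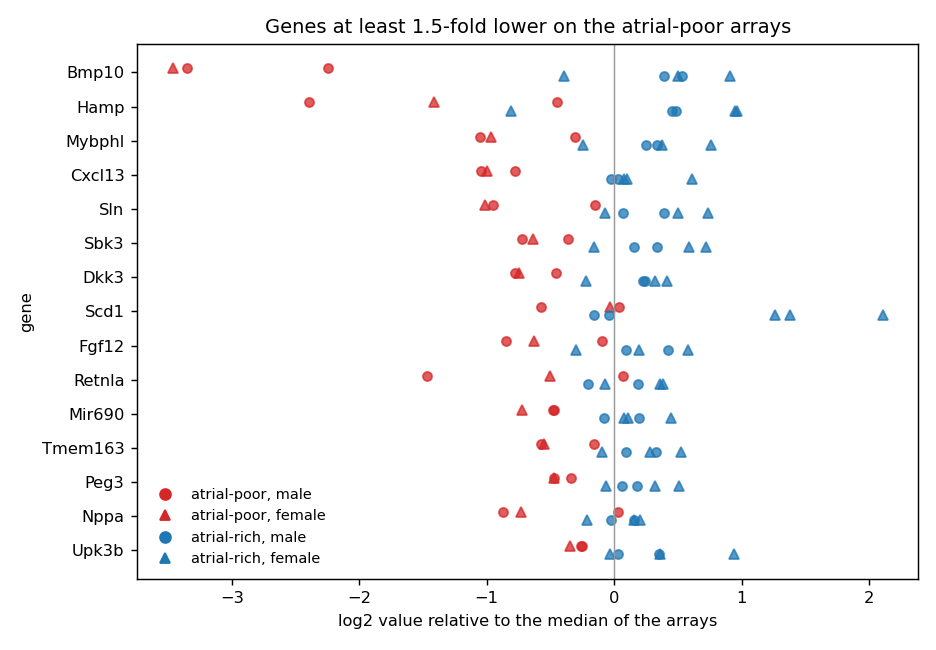
Log2 values on each array (horizontal axis, relative to the median of the arrays) for the 15 genes at least 1.5-fold lower on the atrial-poor side (vertical axis), with circles for males, triangles for females, red for atrial-poor and blue for atrial-rich. Red and blue stand apart in 10 genes, and Hamp, Scd1, Fgf12, Retnla and Nppa overlap.

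In the other direction, 428 genes, or 2.03%, had every atrial-poor value above every atrial-rich value, close to the 1.93% on the low side. The differences were small. The largest among named genes were 0.33 ± 0.09 (SE) for Pbld2, 0.31 ± 0.07 for the peptide transporter Slc15a2 and 0.30 ± 0.07 for Nrn1, a neurite growth factor anchored to the membrane. The other 5 named (Tcl1b1, B3galt2, Lrsam1, Shisa3 and Kmt5a) lay between 0.27 and 0.29. Without female 1 the differences were 0.19 for Nrn1, 0.19 for Tcl1b1 and 0.10 for Kmt5a. With limma and Benjamini-Hochberg adjustment, 0 of 21064 genes (0%) differed between the sides at an adjusted p under 0.05, and 1165 did at an unadjusted p under 0.05, 608 of them lower and 557 higher. Nothing is read from these counts, since the sides came from the same arrays.

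Ventricular muscle genes differed little between the sides. Myl2, the ventricular regulatory light chain, was -0.02, 0.01 and 0.04 on the atrial-poor arrays and -0.06 to 0.04 on the others, a difference of 0.02 ± 0.04 (SE). Of 11 genes on the ventricular list, 3 were lower and 8 higher, with a median of 0.02 and no gene with sides apart. The most distant from 0 in units of its standard error included Irx4, a ventricular transcription factor, at 0.14 ± 0.07 (SE), and Hey2, at -0.14 ± 0.09 (SE). Without female 1 these were 0.05 and -0.06, and without male 1 Hey2 was -0.07, while without male 3 it was -0.25. As centred values give no level of Myl2 against Myl7, the labelled tissue could not be checked for the presence of ventricular or atrial muscle, only for differences between arrays.

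Sarcomere genes shared by all chambers gave 10 lower and 9 higher of 19, with a median of -0.0054. Acta1, the skeletal alpha-actin that the heart also makes, had the largest difference at 0.39 ± 0.14 (SE), and it was 1.12 in male 1 beside -0.32 in female 1 and 0.53 in male 3. Without male 1 it was 0.24. Calcium-handling genes gave 5 lower and 5 higher of 10, with Hrc and Trdn, both proteins of the sarcoplasmic reticulum, at 0.11 ± 0.05 (SE) each with sides apart. Oxidative phosphorylation (7 lower and 11 higher of 18, median 0.01) and fatty acid uptake and oxidation (11 lower and 8 higher of 19, median -0.02) also lay close to 0.

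Pcyt2, the gene disrupted in all of these mice, was -0.13, 0.32 and -0.03 in male 1, male 3 and female 1 and ranged from -0.06 to 0.24 on the atrial-rich side. The difference was -0.04 ± 0.11 (SE), with overlap between the sides, and it ran from -0.16 to 0.05 with each array left out in turn. In the ethanolamine and choline phospholipid list, 3 of 11 genes were lower and 8 higher, with a median of 0.06. Pcyt1a, the parallel enzyme of phosphatidylcholine synthesis, was 0.13 ± 0.05 (SE) higher and Ptdss1, a phosphatidylserine synthase, 0.10 ± 0.04 (SE) higher, both with sides apart, and Ptdss1 was 0.06 higher without female 1.

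Natriuretic peptide and granule genes were lower in 11 of 12 cases, but with a median of only -0.07. Npr3, the clearance receptor of natriuretic peptides, was -0.44 in male 3, -0.27 in female 1 and -0.11 in male 1 against -0.08 to 0.53, a difference of -0.50 ± 0.15 (SE) with the sides just apart. Nppb, the B-type peptide, was 0.26 in male 1, 0.02 in male 3 and -0.43 in female 1 against -0.14 to 0.15, a difference of -0.12 ± 0.09 (SE) with full overlap. The granins Chga, Chgb, Scg2 and Scg3 ran from -0.06 to -0.01.

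Pacemaker and conduction genes did not share the atrial pattern as a list: 7 of 11 were lower and 4 higher, with a median of -0.03. Gja5, the connexin of atrial and conduction cells, was -0.16, -0.13 and -0.09 against -0.01 to 0.15, a difference of -0.21 ± 0.05 (SE) with no overlap. Cntn2, a marker of the conduction system, was -0.37 in male 1 but -0.03 in male 3, and Vsnl1, a calcium sensor of the sinus node and atria, was -0.48 in male 1, -0.36 in female 1 and 0.07 in male 3. The sinus node genes Hcn4, Shox2 and Isl1 had differences of -0.10 ± 0.06, -0.03 ± 0.04 and -0.01 ± 0.06 (SE), and that of Hcn4 was -0.03 without male 3 and -0.17 without female 1.

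**Figure D3:**
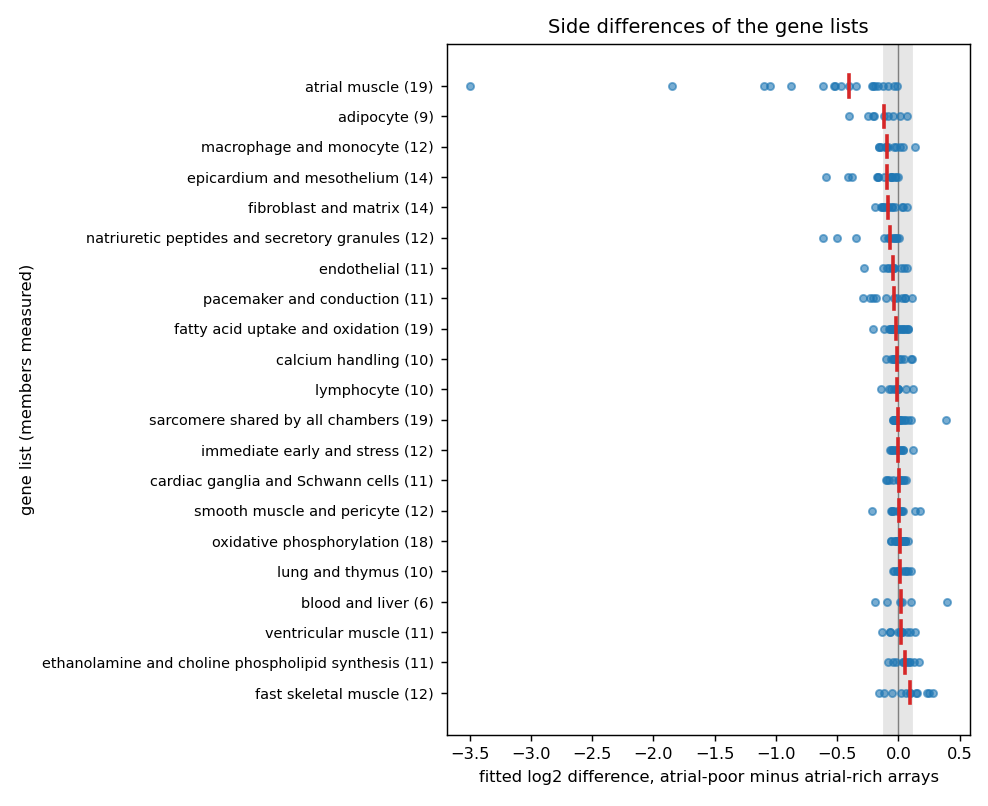
Fitted differences between the sides (atrial-poor minus atrial-rich, log2, horizontal axis) of the measured genes of each list (vertical axis), with the median of each list as a red bar and the 5th to 95th percentile of all genes in grey. The atrial list lies to the left with a median of -0.40, and the ventricular, sarcomere and oxidative phosphorylation lists sit around 0.

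Markers of the epicardium, the mesothelial sheet on the heart's surface, were also lower on the atrial-poor arrays in 13 of 14 cases, with a median of -0.09. Upk3b, a uroplakin of mesothelium, was -0.35 in female 1, -0.26 in male 3 and -0.25 in male 1. It was -0.03 in female 2, 0.03 in male 2, 0.35 in male 4, 0.36 in female 3 and 0.94 in female 4. The sides were apart with a difference of -0.59 ± 0.20 (SE), and female 4 stood highest. Aldh1a2, the retinoic acid synthesising enzyme, was -0.33, -0.25 and -0.16 against -0.01 to 0.44, a difference of -0.38 ± 0.10 (SE), and the mucin Muc16 had a difference of -0.17 ± 0.08 (SE), both without overlap. Upk1b overlapped, at -0.41 ± 0.13 (SE), and Wt1, the epicardial transcription factor, had a difference of -0.06 ± 0.09 (SE). The list means overlapped, at -0.16 to -0.03 on the atrial-poor arrays and -0.05 to 0.22 on the others. Female 1 had the lowest value of all 8 arrays in 7 of the 14 genes, and without it 9 of the 14 were lower, with a median of -0.05. The order of the arrays also differed from that of Myl7: female 2, the highest for Myl7, was the lowest atrial-rich array for Upk3b. The part of epicardium in the atrial differences was not tested.

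**Figure D4:**
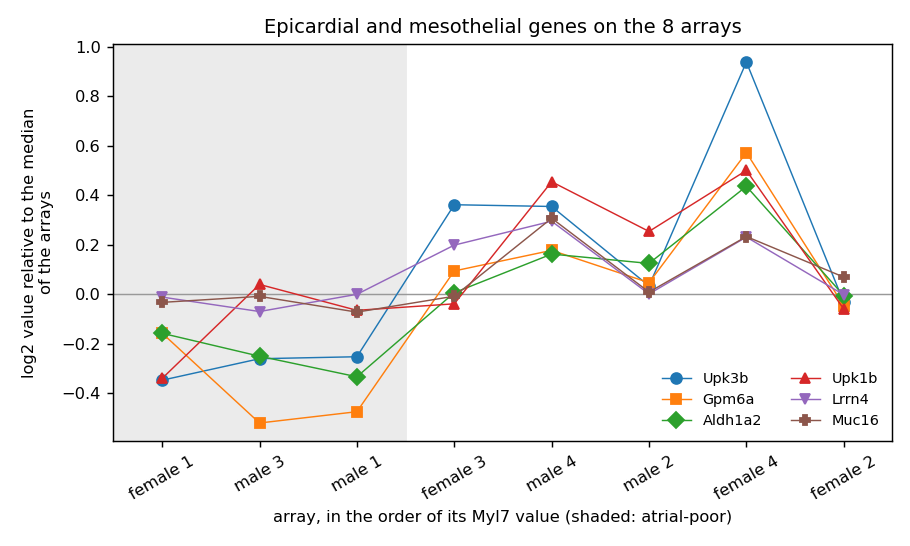
Log2 values of epicardial and mesothelial genes (vertical axis, relative to the median of the arrays) on the 8 arrays ordered by Myl7 (horizontal axis), with a line for each gene and Gpm6a added after its values were seen. Upk3b is between -0.35 and -0.25 on the atrial-poor arrays and highest, at 0.94, in female 4.

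Markers of other cell types overlapped between the sides in their list means. Macrophage and monocyte genes were lower in 9 of 12 cases (median -0.09, list means -0.08 to -0.0022 against -0.03 to 0.04), with Csf1r, the receptor for their growth factor, at -0.15 ± 0.05 (SE) and apart, but C1qb, a complement subunit, at 0.14 ± 0.05 (SE). Fibroblast and matrix genes were lower in 11 of 14 cases (median -0.09, list means -0.21 to 0.26 against -0.07 to 0.11), and endothelial genes in 8 of 11 (median -0.04, list means -0.15 to 0.06 against -0.01 to 0.03). Vwf, the endothelial clotting factor, had a difference of -0.28 ± 0.12 (SE) and -0.05 without female 1. Adipocyte genes were lower in 7 of 9 cases (median -0.12, list means -0.28 to 0.15 against -0.19 to 0.54). Smooth muscle and pericyte genes (5 lower and 7 higher of 12), ganglion and Schwann cell genes (5 and 6 of 11), lung and thymus genes (5 and 5 of 10) and immediate early genes (6 and 6 of 12) had medians between -0.0046 and 0.02. The part of these cell types in the atrial differences was not tested.

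Fast skeletal muscle and liver-type RNA varied between arrays without following the sides. Myh4, the fast skeletal myosin, was 1.57 in male 1, 1.03 in female 1 and 2.23 in male 2, an atrial-rich array, and -0.69 to 0.23 elsewhere. The skeletal list was lower in 3 and higher in 9 of 12 cases, with list means of -0.20 to 0.54 against -0.20 to 0.73. Alb, serum albumin, was 1.76 in female 1 and 2.69 in female 2 and -0.18 to 0.03 elsewhere, and the blood and liver list gave 2 lower and 4 higher of 6. In comparisons added after the data were seen, 16 of 19 atrial genes were lower (median -0.36) without the 3 arrays highest in Myh4, which leaves male 3 alone on the atrial-poor side. Without the 2 arrays highest in Alb, 18 of 19 were lower (median -0.35). That fit has no atrial-poor female, so with sex in the model its side difference rests on the males alone. Its values are the same as without female 1 alone, so it is no separate check on liver-type RNA.

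Predicted, microRNA, small nucleolar RNA and chemosensory receptor genes were left out before the genes with patterns most like that of Myl7, or its reverse, were sought. Those genes were chosen by the absolute Pearson correlation over 8 arrays, after the sex means were taken out, and are given as a description. They were Mybphl (r = 0.99, Spearman rho = 0.90), Brip1 (-0.99, rho -0.98), Aadacl2fm2 (-0.99, rho -0.93), Sln (0.99, rho 0.98), Myl4 (0.98, rho 0.95), Peg3 (0.98, rho 1), Tpm2 (0.98, rho 0.93), Nkain2 (-0.98, rho -0.90), Sbk3 (0.97, rho 0.88) and Fcrl5 (-0.97, rho -0.86). Without female 1 and male 3, the arrays farthest from the median of Myl7, r lay between 0.94 and 0.99 for the positive genes and between -0.97 and -0.88 for the negative ones over 6 arrays. The negative genes moved little: Aadacl2fm2 spanned only -0.02 to 0.04, and Brip1 -0.05 to 0.13. Tpm2, beta-tropomyosin, spanned -0.37 in female 1 to 0.19 in male 2, with a difference of -0.35 ± 0.08 (SE) between the sides. With Myl7 itself in the model in place of the sides, 7 genes had a slope with an adjusted p under 0.05 (limma), all positive: Mybphl, Sln, Peg3, Sbk3, Myl4, Dkk3 and Tpm2. That count is a description too, as Myl7 was read on the same arrays.

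Sex, the comparison the labels give, was not used to make the sides, and the sides held the sexes unequally: 1 of 4 females but 2 of 4 males were atrial-poor. Without the side in the model, all 19 atrial genes had a positive difference (females minus males), with a median of 0.13. With the side as a covariate 9 of 19 were positive and the median was -0.00068. The side was cut from Myl7, itself an atrial gene, so adding it takes out much of what these genes share with Myl7. The change is therefore a description, and no conclusion on sex is drawn from it. For Bmp10 the male mean was -1.17 ± 1.94 (SD, n = 4) and the female mean -0.61 ± 1.98 (SD, n = 4). Its difference of 0.56 ± 1.12 (SE) without the side became -0.31 ± 0.33 with it, and neither passed the test (limma, adjusted p = 0.974 and 0.946). Sln went from 0.20 ± 0.39 to -0.07 ± 0.24 (SE), with adjusted p of 0.974 and 0.994 (limma). Kcna5, with the smallest side difference of the list, had a difference of 0.18 ± 0.04 (SE) with the side and 0.18 without it, higher in females, which did not pass the test (limma, adjusted p = 0.565 and 0.338).

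Over all genes, 0 of 21064 (0%) passed the sex test with the side as covariate (limma, adjusted p under 0.05), and 0 without it. At an unadjusted p under 0.05 (limma) there were 1359 of 21064 genes with the side and 1453 without it, of which 1077 were shared. Both fits used the same arrays, so much of the sharing is built in, and nothing is read from these counts. The median standard error was 0.0510 with the side and 0.050 without it. Acta1 was lower in females by a difference of -1.05 ± 0.13 (SE) with the side (limma, adjusted p = 0.286) and -1.15 ± 0.17 without it (adjusted p = 0.307), with every male value above every female value. Ano5, a membrane protein of muscle, had the smallest adjusted p of all genes, 0.187 with the side and 0.198 without it (limma), and differences of -0.31 ± 0.04 and -0.33 ± 0.04 (SE).

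**Figure D5:**
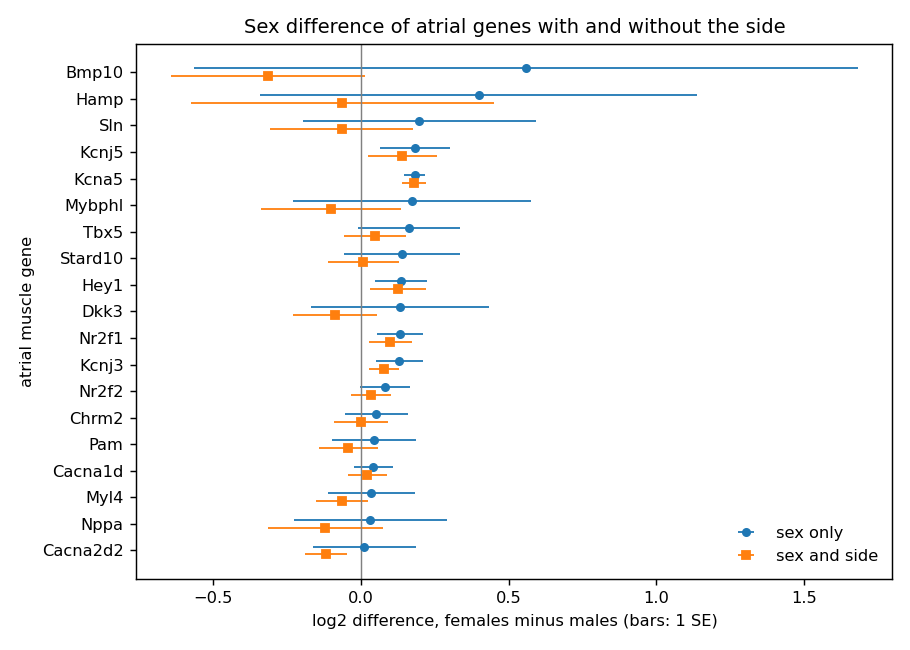
Differences between females and males (log2, females minus males, horizontal axis) of the atrial genes (vertical axis), without and with the side as a covariate, with bars of 1 standard error. Without the side all 19 lie above 0, and with it 9 do.

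The arrays were close in their medians and interquartile ranges and less close in their SD. The medians of the 8 arrays over all probe sets lay between -0.0021 and 0.0023, and their interquartile ranges between 0.0718 and 0.0823. The SD over all probe sets ran from 0.0920 in male 4 to 0.129 in male 1. No pair of arrays held identical values. Xist and 3 Y-linked genes matched the labelled sex on all 8 arrays.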

How the data were processed

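RNA of each heart was hybridised to 1 array after labelling from 100 ng of total RNA, per the labels' protocols. The authors deposited log2 values of 34351 probe sets, all with a median of 0 over the 8 arrays (tolerance 1e-06). The log base was taken as 2, and the software that made the values is not given in the sources used here. Probe sets with 1 symbol in the platform annotation (23521, against 1814 with several and 9016 unnamed) were averaged per gene, which gave 22180 genes. Of these, 21065 were placed on autosomes by the RefSeq table of GRCm38.p6, and 21064 were compared after Myl7 was left out.

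Differences between the sides were fitted by lmFit and eBayes of limma 3.58.1 under R 4.3.3 (side and sex as terms, Benjamini-Hochberg over all 21064 genes, threshold 0.05), and the sex difference was read from the same model. The script was tested on simulated data. The members and the gene lists were chosen with earlier results of these data known. Genes named were the 8 per direction with the largest difference and no overlap, and the 10 most correlated with Myl7 in either direction. Both choices left out predicted, microRNA, small nucleolar RNA and chemosensory receptor genes. Also named were the 2 of each list with the largest ratio of difference to standard error. Atrial genes were given in full, and others named were picked after their values were seen. Promoter motifs were searched on both strands. The number of arrays limits the precision: the median standard error was 0.0527 between the sides. The p-values measure the spread between these samples, which the labels call biological replicates. Alternatives covered normalization, probe sets, variance moderation, array weights, covariates, the split and each array left out.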

Additional observations from a re-analysis of the deposited data

Results flagged for a closer look

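Of 188 groups of 4 arrays of 1 sex tested over 94 genes, 6 held an array whose gap to the nearest of the others was too large a share of the group's range by Dixon's test, and chance flags about 1 in 20 groups. Tcl1b1 was -0.222 in male 2 beside 0.0835 to 0.139 in the other males. Hrc was -0.145 in female 4 beside -0.0006 to 0.0275 in the other females. Cd36 was 0.0845 in male 3, with the other males between -0.0017 and 0.0052. Cd3g was 0.242 in female 1, with the other females between 0.0327 and 0.0583. Scgb1a1, a marker of airway cells, was 0.296 in male 1, with the other males between -0.0163 and 0.00096. Atf3 was 0.186 in female 2, with the other females between -0.0354 and -0.0080.

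Apoa2, an apolipoprotein made by the liver, was lower on the atrial-poor arrays among males, with a difference of -0.0407, and higher among females, with a difference of 0.293. The difference between the sexes was not tested. Female 1, the sole atrial-poor female, also had a high Alb value of 1.76.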

How the results depend on the processing

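The arrays were few and the values centred, so no result here gives a level, and the side of male 1 rests on the threshold. The cause was not tested for any value that moved. Of 1674 side differences of 93 genes under the 18 alternatives that can move a fitted difference, 1631 kept the sign, 129 moved by more than the spread between replicates, and 72 genes kept the sign throughout. Genes at least 1.5-fold higher numbered 0, but 1 with sex left out of the model, 8 without the 3 arrays highest in Myh4 and 1 without the 2 highest in Alb. With Myl7 as a continuous covariate 7 genes were called. Genes with all atrial-poor values lowest and highest numbered 644 and 818 with male 1 moved to the atrial-rich side, 3930 and 4719 without the 3 arrays highest in Myh4, and 1454 and 1463 without the 2 arrays highest in Alb, where fewer arrays make separation easier. With the side left out, 19 atrial genes were higher in females, and the sex difference changed sign for 10 of them, among these Bmp10 (0.56), Sln (0.20) and Nppa (0.032).

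With each array left out in turn, genes with all atrial-poor values lowest numbered 604 to 1139 and highest 610 to 1170, genes at least 1.5-fold lower 10 (without female 1) to 17, and at least 1.5-fold higher 0 to 3. Atrial genes lower numbered 18 to 19 (median -0.45 to -0.35), and epicardial genes lower 9 to 14 (median -0.14 to -0.05). Atrial genes higher in females numbered 6 to 15 (median -0.05 to 0.06), and no gene was called between the sides or the sexes. The sex difference of Sln ran from -0.22 to 0.16, with positive values of 0.09 without male 1, 0.16 without female 1 and 0.05 without female 3, and that of Nppa from -0.23 to 0.029, the positive value without male 1.

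The samples were not treated as pairs by their shared replicate numbers. Deviations of same-numbered males and females correlated at 0.14, 0.10, 0.0034 and 0.09, and those of differently numbered ones at -0.13 to 0.098. Whether the numbers mark a shared batch was not tested. Only male 3 and female 3 share a replicate number but lie on different sides. With the replicate block, the side difference therefore rested on these 2 arrays, with the sex difference taken from the other replicates. In that fit 43 genes were at least 1.5-fold lower and 34 at least 1.5-fold higher. The atrial median was -0.093 with 14 of 19 genes lower, and the sex difference of Bmp10 was 0.13. These values are no check of the difference over all 8 arrays. The side differences of Hamp and Hey2 turned to 1.01 and 0.25 with that block.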

Other observations

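Some genes outside the lists, picked after their values were seen, also had every atrial-poor value below every atrial-rich value. Cdh11, a cadherin of mesenchymal cells, was -0.39 in male 3, -0.38 in female 1 and -0.30 in male 1 against -0.05 to 0.20, a difference of -0.46 ± 0.06 (SE). Rxfp1, the relaxin receptor, was -0.37, -0.35 and -0.33 against -0.03 to 0.22, a difference of -0.42 ± 0.06 (SE). Cntfr, a receptor subunit for ciliary neurotrophic factor, and Npy1r, a neuropeptide Y receptor, had differences of -0.47 ± 0.07 and -0.44 ± 0.07 (SE). Gpm6a, a membrane glycoprotein, and Mlana, a melanocyte antigen, had differences of -0.50 ± 0.13 and -0.43 ± 0.11 (SE).

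Among the 8 genes named as higher, Lrsam1, a ubiquitin ligase, had the smallest standard error for its size, with 0.29 in male 1, 0.27 in male 3 and 0.19 in female 1 against -0.08 to 0.03 and a difference of 0.28 ± 0.04 (SE).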
